A study of Mus with 2 samples.

Results

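Lysosomal enzymes and membrane proteins were examined in mouse bone marrow derived macrophages (BMDMs) given the FXR agonist GW4064 or its solvent DMSO. The 42 genes were chosen by symbol for their role, with earlier results of these data known, and cover cathepsins and legumain, glycosidases and sulfatases, lipid hydrolases and their activators, membrane proteins, and the regulator Tfeb with Tpp1 and Grn. Of these, 41 were measured, among 13532 measured genes of 20144 genes with a probe. BMDMs were grown from the bone marrow of male C57BL6/J mice, 10 weeks old, for 7 d with M-CSF at 10 ng/mL. Both cultures were then kept under M2 conditions, with IL-4 at 10 ng/mL, for 24 hr, one with DMSO and one with 10 µM GW4064. Each condition was measured on 1 array with 1 Cy3-labelled RNA, so that there was no replicate error and no test, and differences are given by their size. BMDMs are a culture model: they matured in the dish under M-CSF alone, and GW4064 was given at 1 dose and 1 time point.

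Lysosomes are acidic organelles in which macrophages break down what they engulf and what autophagy delivers. Their soluble hydrolases are made in the endoplasmic reticulum, most are tagged with mannose 6-phosphate and sorted to the lysosome, and a proton pump in the lysosomal membrane keeps the lumen acidic. TFEB is a transcription factor that binds a short element shared by many lysosomal genes and raises their expression when it enters the nucleus. In macrophages, cathepsins also cut the invariant chain and antigens for presentation on MHC class II.

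The signal of a probe is its brightness after background subtraction by the scanner software, and the signal of a gene is the geometric mean over its probes. The log2 difference is GW4064 minus DMSO after each array was set to its 75th percentile, a signal of 1209 with DMSO and 1265 with GW4064. The scaling therefore takes 0.066 off each log2 difference of the raw signals, and a gene with slightly more signal on the GW4064 array can have a difference below 0. All 41 measured genes were well above background on both arrays at each measured probe. Ctse, the aspartic protease cathepsin E, did not pass this mark on either array, with signals of 4.20 and 4.18. Saturation was marked at 0 spots. Of 8 macrophage markers 7 were measured, with differences between -0.25 for Adgre1 and 0.13 for Cd14. A difference between the arrays does not show what the cells are, so these values do not test the identity of the cultures.

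The lysosomal genes as a group stood close to 0. The median log2 difference of the 41 genes was -0.020, against 0.0068 over all genes measured. On the GW4064 array 19 were higher and 22 lower, where 51.6% of all genes were higher. At a threshold of 1.5-fold 0 were higher and 1 was lower, namely Tfeb, where 4.39% of all genes were higher and 5.56% lower. Among genes with a signal of 100 or more on both arrays, as all 41 had, 1.48% were higher and 1.67% lower. At 2-fold 0 were higher and 0 lower, where 2.04% of all genes were higher and 2.71% lower.

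Of the 41 genes, 40 differed by under 1.3-fold, Tfeb being the exception, against 83.1% of all genes. All 41 had a signal of 100 or more on both arrays, and among the 10309 genes with that signal the share under 1.3-fold was 92.3%. The interquartile range of the log2 differences was 0.22 for the 41 genes, 0.25 for all genes and 0.20 for genes of that signal. By this measure the lysosomal genes were no more closely packed than genes with a signal of 100 or more. That set was not matched in signal, and many of the 41 genes were far brighter than 100. Next to Tfeb in size came Ctsh, which was 1.27-fold lower, and Gm2a, which was 1.25-fold higher, both just inside the limit. The 1.3-fold limit was chosen after the values were seen, and a lower one, near the value of Gm2a, had been tried before it. Under the value of Gm2a lay 38 of the 41 genes, against 79.8% of all genes and 89.6% of those with a signal of 100 or more. With quantile, loess or normexp processing Ctsh also passed 1.3-fold, which left 39 of 41 genes under it, and with spike-in centring 36 were left.

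**Figure D1:**
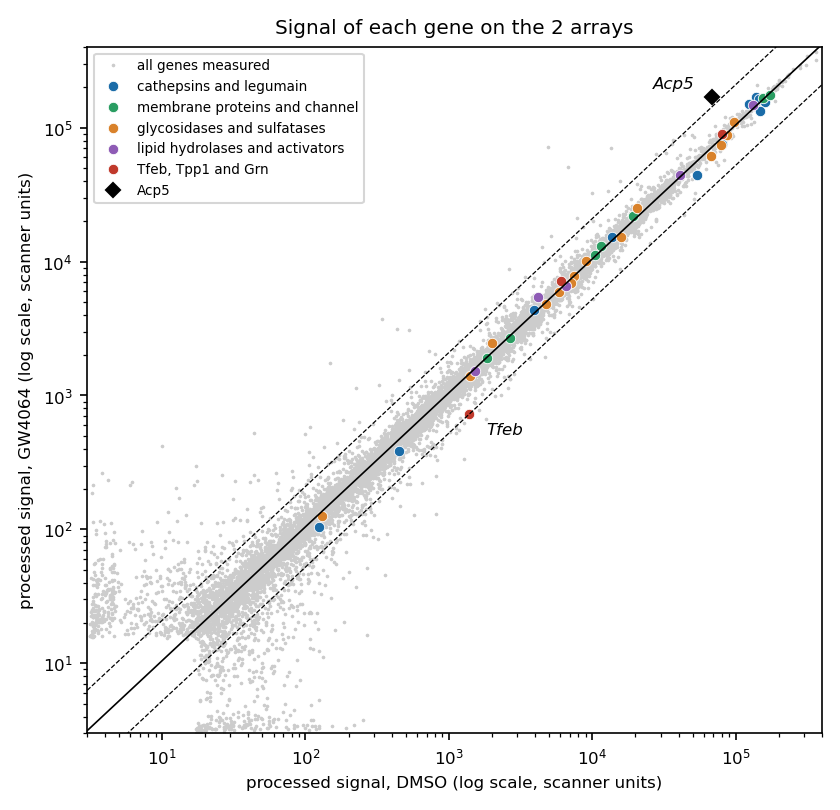
Processed signal of each gene with DMSO (x axis) and GW4064 (y axis), both on log scales in scanner units, with 1 array per condition. Grey points are all genes measured, coloured points the 41 lysosomal genes by role, the solid line is equality after scaling and the dashed lines are 2-fold. The lysosomal genes lie along the line apart from Tfeb, at 1386 and 727, and Acp5, a lysosomal phosphatase outside the 41 genes, lies above it.

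Spot scatter set a lower limit on what could be read from these arrays. The array carries some probes at 10 spots each. For the 234 of these with no dim spot, the SD of the log2 difference between copies had a median of 0.077. Of the 41 genes, 14 lay further from 0 than 2 times this SD, with 6 higher and 8 lower. The share of all genes past this limit was not computed, so the count cannot be read as particular to the lysosomal genes. Copies of a probe share the array, the labelling and the culture, so this SD holds none of the spread between cultures. The scanner software gives its own error for each spot, which came to between 0.204 and 0.225 for a log2 difference of a lysosomal probe. By that estimate 1 of 52 probes, that of Tfeb, lay past 2 times its error. The estimate was nearly constant, with a median of 0.204 over these probes, so it worked as a nearly fixed cut-off. The share of all probes past it was not computed. Gusb, beta-glucuronidase, was the single one of the 42 genes with a probe printed 10 times. Its signals were 87686 and 88342, and its log2 difference was -0.055 (SD 0.045 between the copies).

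The direction of small differences depended on the scaling. With the spike-in control RNA as the centre of each array, the median of all genes moved from 0.0068 to -0.18 and 17.9% of all genes were higher. Then 5 of the 41 genes were higher and 36 lower, and their median was -0.21. Over the 12 settings, of which 11 were alternatives, 5 genes were higher in each that measured them (Ctsd, Ctsl, Gaa, Neu1 and Gm2a) and 19 were lower in each. The other 17 had both signs, so that their order around 0 was not settled. Spike-in centring, which left 17.9% of all genes higher, was among the settings, so fewer genes could be higher in each than lower in each. The share of all genes that kept their direction over the settings was not computed. The settings that change the filter on background could not alter the values of the 41 genes, so they add nothing to these counts. Some areas of the slide were damaged, taken here as places where at least 2 neighbours of a spot within 300 µm had an 8-fold or larger difference. A probe of 10 of the 41 genes lay in such an area. Without these spots 8 genes had no probe left, namely Ctsa, Ctsf, Ctsl, Lgmn, Hexa, Naglu, Manba and Neu1.

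**Figure D2:**
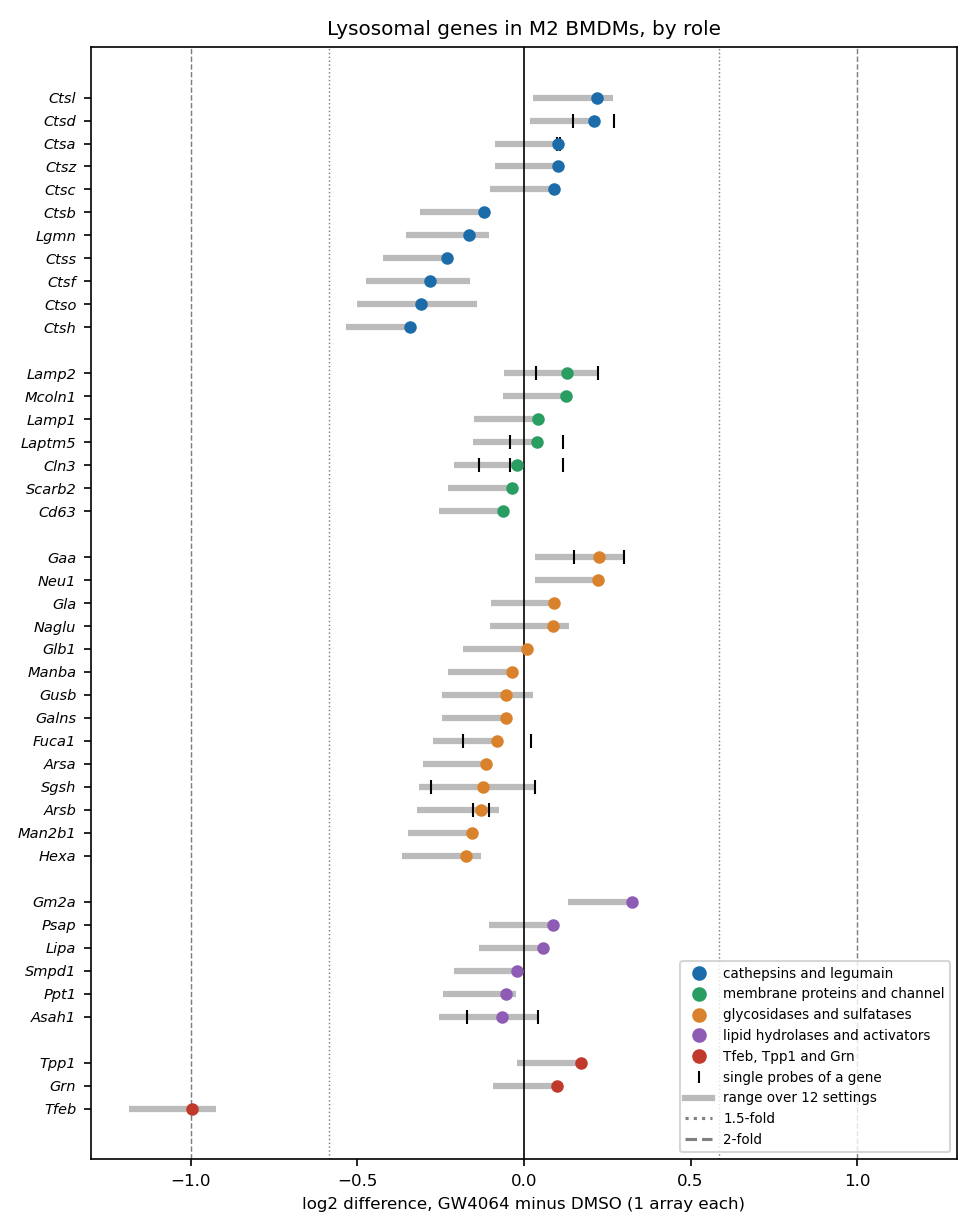
Log2 difference, GW4064 minus DMSO, of each measured lysosomal gene, grouped by role. Coloured points are the gene values, black ticks the single probes of genes with several probes, grey bars the range over the 12 settings, and dotted and dashed lines 1.5-fold and 2-fold. Tfeb lies near -1, and the other 40 genes lie between -0.34 and 0.32.

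Tfeb, the transcription factor of lysosomal genes, had the largest difference of the 41. Its single probe, matched to NM_001161722, had a signal of 1386 with DMSO and 727 with GW4064, both well above background. The log2 difference was -0.996, which is 50.2% of the DMSO level and just short of 2-fold. Over the alternatives it lay between -1.19, with spike-in centring, and -0.92, with a normexp background correction. The Tfeb probe was printed once, at a spot with 0 neighbours of 8-fold or more within 300 µm. Among 10272 genes with a signal of 100 or more on both arrays and no probe at a bound, Tfeb had the 45th largest decrease. Among genes of that signal level 0.427% were 2-fold or more lower, and 1.67% were 1.5-fold or more lower.

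The other genes of the TFEB family were measured beside it. Tfe3, which binds the same element, had a log2 difference of -0.038, with probes on both sides of 0. Mitf, the melanocyte and osteoclast member of the family, had signals of 17544 and 15654, a difference of -0.23. Tfec, a member expressed in macrophages, had 0.019. Tfeb alone among the 4 family genes was 1.5-fold or more lower. Beside the decrease of Tfeb, the other 40 lysosomal genes lay between -0.34 and 0.32.

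The list of the TFEB family and lysosomal nutrient sensing had 22 genes, all measured, with 12 higher, 10 lower and a median of 0.0053. It includes the Ragulator subunits Lamtor1 to Lamtor5, which hold mTORC1 at the lysosome and lay between -0.013 and 0.18. Of the 22, 0 reached 1.5-fold, and 1 did with quantile or loess normalization or in the deposited table, namely Rragd, a Rag GTPase. Rragd was at 1.498-fold, with low signals of 21.6 and 33.8. The counts were 9 higher and 13 lower with quantile, loess or normexp processing and 1 and 21 with spike-in centring.

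Cathepsins and legumain are the proteases of the lysosome. Of 11 measured, 5 were higher and 6 lower with GW4064, with a median of -0.12 and 0 at 1.5-fold. Among the 8 cysteine cathepsins 3 were higher and 5 lower, with a median of -0.18. With spike-in centring, the counts for these 8 were 1 and 7.

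The lowest was Ctsh, an aminopeptidase, which went from 53661 to 44300, a log2 difference of -0.34. Ctso had signals of 124 and 105, a difference of -0.31, and Ctsf had 448 and 385, a difference of -0.28. Ctss, the cathepsin that removes the invariant chain in MHC class II cells, had 148183 and 132144, a difference of -0.23. The values of these 4 genes were below 0 in all settings that measured them, and those of Ctso (-0.14) and Ctsf (-0.16) were nearest to 0 with the normexp correction.

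Lgmn, the asparagine endopeptidase legumain, had signals of 80237 and 74971, a difference of -0.16. Ctsb, a cathepsin that is both an endopeptidase and a carboxydipeptidase, had 160776 and 154790, a difference of -0.12. Both were below 0 in each setting that measured them.

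On the other side of 0 stood Ctsl and Ctsd. Ctsl, a broad endopeptidase, went from 138940 to 169202, a log2 difference of 0.22. Ctsd, the main aspartic protease of lysosomes, had probes with differences of 0.15 and 0.27. The signals of Ctsd were 231593 and 268690 on the brighter probe, and 65408 and 82540 on the other. Centred on the spike-in RNA these values shrank to 0.028 for Ctsl and 0.019 for Ctsd.

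Ctsz, a carboxypeptidase, had signals of 145732 and 163819 and a difference of 0.10. Ctsa, the serine carboxypeptidase that also protects neuraminidase and beta-galactosidase, had 13638 and 15331, a difference of 0.10, and its probes gave 0.098 and 0.11. Ctsc, which activates serine proteases of granules, had 3912 and 4356, a difference of 0.089. These 3 were below 0 with spike-in centring.

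Membrane proteins stood closest together. Of 7 measured, 4 were higher and 3 lower, between -0.064 and 0.13 with a median of 0.038, which was -0.016 with quantile normalization, and all 7 were below 0 with spike-in centring. Lamp1, an abundant glycoprotein of the lysosomal membrane, had signals of 154381 and 166244, a log2 difference of 0.041. Lamp2, which also serves in autophagy, had differences of 0.037 and 0.22 on its probes. Mcoln1, the lysosomal calcium channel whose release of calcium promotes the entry of TFEB into the nucleus, had 11497 and 13136, a difference of 0.13.

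Cd63, a tetraspanin of late endosomes, was level between the arrays in raw signal, with 174518 and 174688, and had a difference of -0.064. Scarb2, the receptor that carries glucocerebrosidase to the lysosome, had 2654 and 2709, a difference of -0.036. Laptm5, a transmembrane protein of blood cells, had probes at -0.042 and 0.12. Cln3, a membrane protein lost in a childhood storage disease, had probes between -0.13 and 0.12. Neither Laptm5 nor Cln3 had one direction over its probes.

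Glycosidases and sulfatases cut sugars and sulfate groups from glycoproteins, glycolipids and glycosaminoglycans. Of 14 measured, 5 were higher and 9 lower, with a median of -0.055, a range of -0.18 to 0.22 and 0 at 1.5-fold. Among the 7 enzymes of glycosaminoglycan breakdown 2 were higher and 5 lower, and with spike-in centring all 7 were lower. All 4 sulfatases (Arsa, Arsb, Galns and Sgsh) had a gene value below 0, between -0.13 and -0.055. For Sgsh, the heparan N-sulfatase, the probes disagreed. One had 3210 and 2768, a difference of -0.28, and the brighter one had 78857 and 84364, a difference of 0.032.

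The highest of the group were Gaa and Neu1. Gaa, the acid alpha-glucosidase that degrades glycogen, had 15877 and 20442 on its brighter probe and 255 and 296 on the other, with differences of 0.30 and 0.15. Neu1, the lysosomal sialidase, had 20423 and 24956, a difference of 0.22. With spike-in centring both came to 0.033.

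The lowest were Hexa and Man2b1. Hexa, the alpha subunit of beta-hexosaminidase, had 66779 and 61891, a difference of -0.18, and -0.26 with quantile normalization. Man2b1, an alpha-mannosidase, had 79130 and 74267, a difference of -0.16. Both were below 0 in each setting that measured them.

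The remaining enzymes of this group lay within 0.13 of 0. Gla, alpha-galactosidase A, had 98135 and 109377, a difference of 0.091, and Naglu, a heparan sulfate enzyme, had 9063 and 10082, a difference of 0.088. Glb1, beta-galactosidase, had 7440 and 7830, a difference of 0.0080. Manba, beta-mannosidase, had a difference of -0.036, Galns of -0.055, Fuca1, the alpha-fucosidase, of -0.081, Arsa, which acts on sulfatide, of -0.11, and Arsb, which acts on dermatan sulfate, of -0.13. The signals of Arsb were low, at 131 and 126. Fuca1 had a bright probe at -0.18 and a dim probe, with signals of 69.6 and 74.0, at 0.021.

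Lipid hydrolases and their activators degrade membranes and stored lipids. Of 6 measured, 3 were higher and 3 lower, with a median of 0.018, which was -0.025 with quantile normalization. Gm2a, the activator that presents the ganglioside GM2 to beta-hexosaminidase, was the highest of all 41 genes. Its signals were 4150 and 5436, a log2 difference of 0.32, and it stayed between 0.13, with spike-in centring, and 0.33 over the alternatives. Its difference and that of Hexa, whose product it serves, had opposite signs.

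The other 5 lay between -0.064 and 0.087. Psap, the precursor of the saposins, had 131975 and 146711, a difference of 0.087. Lipa, the acid lipase of cholesteryl esters and triglycerides, had 40818 and 44426, a difference of 0.057. Smpd1, acid sphingomyelinase, had 6475 and 6683, a difference of -0.020, and Ppt1, a palmitoyl thioesterase, had 1517 and 1531, a difference of -0.053. Asah1, acid ceramidase, had probes at -0.17 and 0.043, and the lower of them lay in a damaged area of the slide. Among the 8 enzymes and activators of sphingolipid breakdown, 4 were higher and 4 lower.

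Tpp1 and Grn were counted with Tfeb. Tpp1, a tripeptidyl peptidase, had signals of 6087 and 7171, a log2 difference of 0.17. Grn, the precursor of the secreted and lysosomal granulins, had 80206 and 89870, a difference of 0.098. Both were below 0 with spike-in centring. Over the 6 genes whose loss causes neuronal ceroid lipofuscinosis (Ppt1, Tpp1, Cln3, Ctsd, Ctsf and Grn), 3 were higher and 3 lower.

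Lists of other lysosomal genes, 158 in all with 149 measured, gave a like picture. Of these 69 were higher and 79 lower, with a median of -0.013, and 143 differed by under 1.3-fold, beside 83.1% of all genes and 92.3% of those with a signal of 100 or more. With spike-in centring 16 were higher, 132 lower and 123 under 1.3-fold. At 1.5-fold 2 were higher, Acp5 and Smpdl3b, and 1 was lower, Stfa1, where 4.39% of all genes were higher and 5.56% lower. Of genes with a signal of 100 or more on both arrays, 1.48% were higher and 1.67% lower. The medians of the 6 lists lay between -0.063, for other lysosomal membrane proteins, and 0.032, for subunits of the proton pump. With spike-in centring all 6 medians were below 0.

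Acp5, tartrate-resistant acid phosphatase of macrophages and osteoclasts, had the largest difference above 0 of the lysosomal genes measured. Its probes, both matched to NM_001102405, went from 58368 to 141799 and from 79140 to 203001. The log2 differences were 1.21 and 1.29, and the gene value of 1.25, or 2.39-fold, was the 30th largest increase among the 10272 genes ranked above. It lay between 1.06 and 1.29 over the alternatives.

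Smpdl3b, a membrane-bound relative of sphingomyelinase, had low signals of 97.8 and 160, a log2 difference of 0.64, and 0.25 with the normexp correction. Stfa1, one of the stefins that inhibit cysteine cathepsins, had a signal of 29.5 with DMSO and did not stand well above background with GW4064. At the bound it was at least 2.04-fold lower, at a spot in a damaged area. That bound depended on the processing, with a log2 difference of -0.60 with the normexp correction and -0.99 with quantile normalization. The more strongly read inhibitors were Cstb, stefin B, with 82286 and 105048, a difference of 0.29 at a spot in a damaged area, and Cst3, cystatin C, with 127601 and 132836, a difference of -0.0077.

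The proton pump had 19 subunits measured, with 12 higher, 7 lower and 0 at 1.5-fold. The majority turned with the scaling, to 8 higher and 11 lower with loess, 9 and 10 with normexp and 1 and 18 with spike-in centring. Its lowest were Atp6v1b2, with 5852 and 4746 and a difference of -0.37, and Atp6v0a1, with 133440 and 110008 and a difference of -0.34 at a spot in a damaged area. The highest was Atp6v0d1, with 15795 and 19188 and a difference of 0.22. Of 26 genes of sorting to the lysosome 12 were higher and 14 lower. Among them Igf2r, the large mannose 6-phosphate receptor, had a difference of 0.26. Its probe was printed at 10 spots, some of them in damaged areas, with an SD of 0.24 between the copies. M6pr, the small receptor, had a difference of 0.062.

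**Figure D3:**
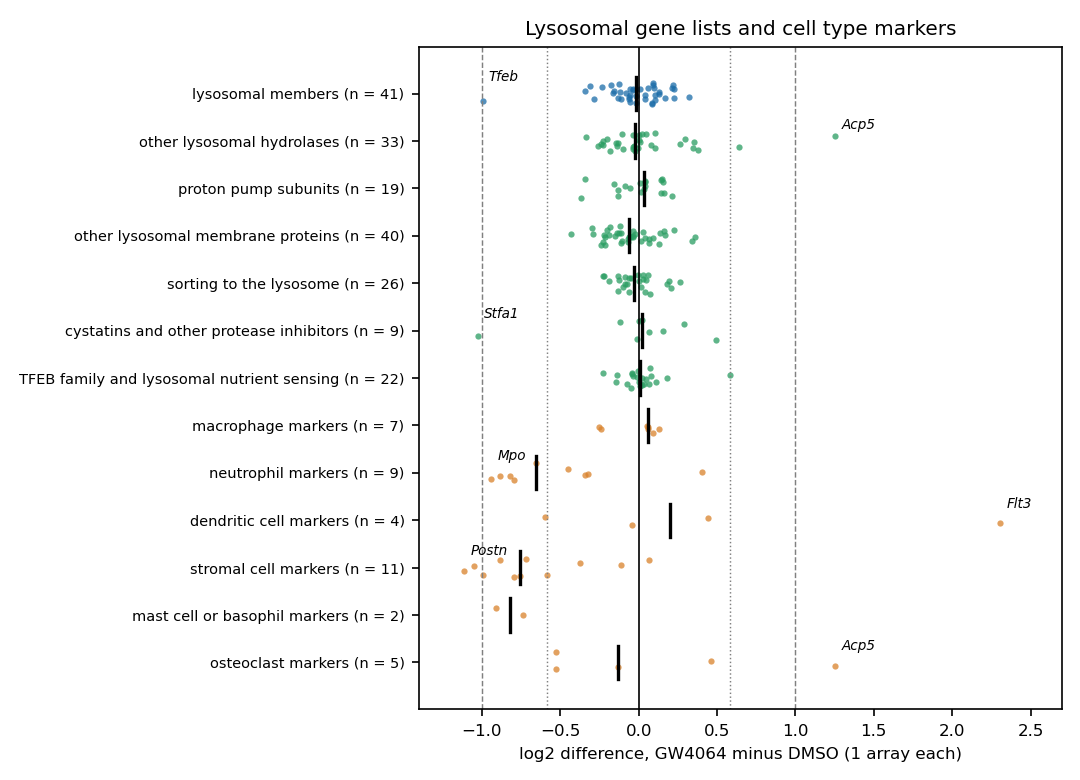
Log2 difference, GW4064 minus DMSO, of the 41 lysosomal genes (blue), of lists of other lysosomal genes (green) and of cell type markers (orange), with 1 point per measured gene, a vertical bar at each median and dotted and dashed lines at 1.5-fold and 2-fold. Lysosomal lists centre near 0 with Tfeb and Acp5 apart, and the neutrophil and stromal cell medians are -0.65 and -0.76. Genes well above background on 1 array alone, such as Stfa1 and Flt3, are drawn at their bound.

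Markers of neutrophils and stromal cells were mostly lower with GW4064. Of 9 neutrophil markers measured 8 were lower, and their summed signal, as a multiple of the 75th percentile of the array, was 11.5 with DMSO and 7.15 with GW4064. Of 11 stromal cell markers 10 were lower, with sums of 17.7 and 9.46. The sums of the 7 macrophage markers were 89.8 and 82.6, with 5 higher, 2 lower and a median log2 difference of 0.058. The lower ones were Adgre1 (-0.25) and Csf1r (-0.24), and with spike-in centring all 7 were lower. Of 4 dendritic cell markers measured 2 were higher and 2 lower, with sums of 30.4 and 29.6. Nearly all of both sums came from 1 probe of Siglech, with signals of 36735.5 and 37359.9 and a log2 difference of -0.041. The other Siglech probe was dim on both arrays, with signals of 5.01 and 4.76, so the probes of this gene disagreed. The other lower marker, Ccr7, had low signals of 32.9 and 22.7, a difference of -0.60. Flt3, a receptor of dendritic cell precursors, was at least 4.94-fold higher at a spot in a damaged area. The other Flt3 probe was dim on both arrays, with signals of 3.80 and 5.31. Zbtb46, a transcription factor of dendritic cells, had a log2 difference of 0.44, with 1 of its 2 probes at a bound. Both mast cell or basophil markers measured were lower, with low signals of 38.8 and 21.7 for Mcpt4 and 37.9 and 23.8 for Kit. Of the dendritic cell markers Cd209a and Xcr1, of the stromal cell markers Lum, of the mast cell or basophil markers Cpa3, Mcpt8, Fcer1a and Hdc, and of the osteoclast markers Calcr did not stand well above background on either array. In these bulk cultures fewer cells of a type and less RNA per cell cannot be told apart, and the part of such cells in the differences of Tfeb, Ctsh and the other lysosomal genes was not tested.

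**Figure D4:**
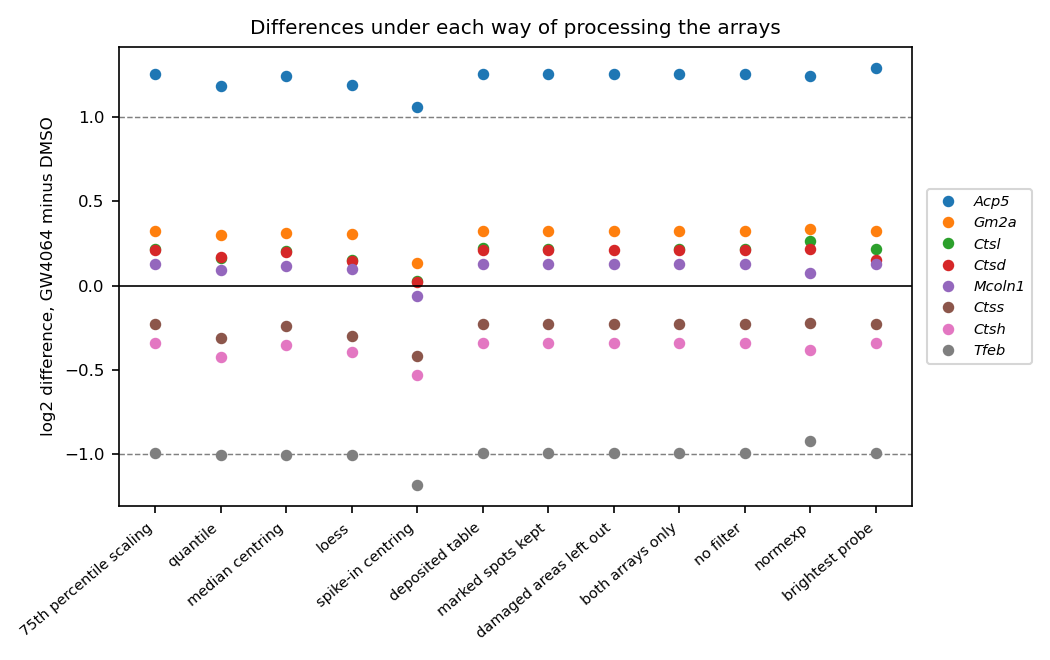
Log2 difference, GW4064 minus DMSO (y axis), of 8 lysosomal genes under the 75th percentile scaling and each of 11 alternatives (x axis), with dashed lines at 2-fold. The order of the genes is held by Acp5 at the top and Tfeb at the bottom, spike-in centring lowers each value, and Mcoln1 is below 0 under that setting. Ctsl has no point where damaged areas were left out.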

How the data were processed

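Total RNA of BMDMs was labelled with Cy3 (150 ng per sample) and read on 1-colour Agilent mouse arrays. The authors deposited the intensity of each spot from Agilent Feature Extraction 10.7.1.1, background-subtracted and detrended within the array and not scaled between arrays, and a log2 table of both arrays whose normalization is not given in the sources used here. From the intensities, log2 values minus the 75th percentile of all non-control spots were computed. Spots marked as uneven or as outliers were left out, spots of 1 probe were averaged, and a probe dim on both arrays was dropped. Where 1 array alone was well above background, the dim one was set to a bound, namely the lowest value that array measured well above background, or its own where that was higher. Probes were named through unversioned RefSeq accessions (GRCm38.p6), which matched 26581 of 39429 probes. The array was designed on another build, so no coordinates are given. A gene value is the mean over its probes. No test was made with 1 array per group, and precision is limited by that number.

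The genes and lists were chosen with earlier results of these data known. Values on both arrays were to be given for genes at 1.5-fold or more, for the highest and lowest of each role group, for Tfeb and Mcoln1, and for other lysosomal genes at 1.5-fold or more. Further genes were added for their role. Promoters were not analysed here, and 1 further lysosomal gene is not reported here. Alternatives were quantile, median, loess (span 0.3) and spike-in scaling (8 probes), keeping marked spots, the log2 table as deposited, leaving out damaged areas, other filters, normexp with an offset of 50, and the brightest probe. The calculation was tested on simulated data. R 4.3.3 with limma 3.58.1 and Python 3.11.15 with pandas 2.3.3 and numpy 2.4.6 were used.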

Additional observations from a re-analysis of the deposited data

How the results depend on the processing

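No paired analysis was possible because a single culture was read per treatment (1 array each). Spike-in centring moved the medians and the counts of higher and lower genes, and left the counts at 1.5-fold as they were (0 higher, 1 lower). The median of the 41 genes was -0.21, with 5 higher and 36 lower, against -0.020, 19 and 22. The medians became -0.31 for cathepsins and legumain, -0.15 for membrane proteins, -0.25 for glycosidases and sulfatases, -0.17 for lipid hydrolases and activators and -0.092 for Tfeb, Tpp1 and Grn. For the other lists they became -0.21 for hydrolases, -0.16 for proton pump subunits, -0.25 for membrane proteins, -0.22 for sorting, -0.17 for protease inhibitors and -0.19 for the TFEB family and nutrient sensing. All genes moved by a like amount under it, since it adds a constant. The number of genes 2-fold or more lower was 1 in place of 0 with quantile, median, loess and spike-in scaling, since Tfeb lay at the threshold. At 4-fold 0 genes were higher and 0 lower. The value of single genes moved by more than 0.077, the median SD over copies, for 41 of 41 genes with spike-in centring, 6 with the brightest probe, 5 with normexp, 3 with quantile normalization, 1 of 33 without damaged areas, 1 with marked spots kept and 0 under the other 5 alternatives. These 5 include the filters on background, which could not move the 41 genes, since each measured probe was well above background on both arrays. Median scaling and the deposited table moved the 41 genes by a small, nearly constant amount. Without damaged areas 8 of the 41 genes and Stfa1 had no value. Signal over background did not limit the 41 genes, apart from low signals for Ctso, Arsb and Ctsf.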

Other observations

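Acp5 also marks osteoclasts, and 5 of 6 osteoclast markers were measured. The signals of Dcstamp and Ocstamp, which encode proteins of cell fusion, were 21988 and 15963 for the first and 21144 and 15340 for the second, log2 differences of -0.53 each. Ctsk, the collagen-cleaving cathepsin of osteoclasts, had 18548 and 17682, a difference of -0.13 at a spot in a damaged area, which is within 2 times the spot SD. Oscar, an osteoclast receptor, had low signals of 74.95 and 108, a difference of 0.46, also at a spot in a damaged area. Of the proton pump subunits known for osteoclasts, Tcirg1 had 0.15 and Atp6v0d2 had 0.042. Of the 5 markers, Acp5 and Oscar were thus higher and the other 3 lower with GW4064 on these arrays. Their values were chosen for this paragraph after they had been seen, and no explanation was tested.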
